A study of Mus musculus with 25 samples.

Results

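The 43 genes described here drive or restrain the cell division cycle, and the measurement was the accessibility of the chromatin around them in CD8+ T cells. A peak was taken as a member when the protein-coding gene with the start site nearest to its midpoint was one of the 43 genes. This rule gave 60 of the 13527 peaks counted in the study, over 34 of the 43 genes. The nearest gene need not be the gene that a peak acts on.

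ATAC-seq marks open chromatin through a transposase that cuts accessible DNA and leaves sequencing adapters there. It was run on CD8+ T cells sorted from spleen and lymph nodes of female C57BL/6 mice with a tetramer that binds T cell receptors for an OVA peptide presented by Kb. OVA was carried by the graft or the father (2W-OVA.BALB/c), so the sorted cells recognised an antigen of graft and fetus and are named fetus/graft-specific, or TFGS. The tetramer therefore limits the picture to T cells of 1 specificity, and the recipients were young adults by the study's methods. The 25 libraries formed 7 groups. Naive mice (3 libraries) were untreated. Sensitized mice (4 libraries) had rejected an allogeneic skin graft a month or more before. N+P mice were naive before a semi-allogeneic pregnancy, and S+P mice had both the graft and the pregnancy, with cells sorted in the first days after birth. C1 (N+P, 3 libraries) and C4 (S+P, 4 libraries) were PD1- cells. C5 was PD1+CD73+ (3 N+P and 4 S+P libraries), and C7 was PD1+CD73- (4 S+P libraries). PD1 is an inhibitory receptor of activated and exhausted T cells, and CD73 is an ectoenzyme that makes adenosine. In a bulk library, more cells with an open site and a wider opening in each cell cannot be told apart.

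A resting T cell enters the cycle when D-type cyclins activate Cdk4 and Cdk6, which phosphorylate the pocket proteins Rb1, Rbl1 (p107) and Rbl2 (p130) and so release E2F factors. E2F1, E2F2 and E2F3 then switch on cyclin E, the MCM helicase and other replication genes, while cyclin B with Cdk1, Plk1 and the Aurora kinases run mitosis. The inhibitors Cdkn1a (p21), Cdkn1b (p27), Cdkn2c (p18) and Cdkn2d (p19) brake the kinases, and Rbl2 with E2F4 keeps cycle genes silent in resting cells. Myc and Myb are transcription factors that couple growth and self-renewal to division. Open chromatin at a promoter is not the same as transcription, and the promoters of cycle genes are usually accessible in resting cells too.

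The depth, as total counts in peaks, lay between 2430890 (S+P C4 1) and 25419715 (S+P C5 1), with a median of 8197552. Some libraries stood apart from their groups over all peaks: Sensitized 3 and 4 lay nearer to N+P C5, Sensitized 1 nearer to S+P C4 and Naive 3 nearer to N+P C1. Where a member called between groups lost its call without one of them, this is stated with its values. Of 8 CD8+ T cell markers, 6 had a promoter peak (Cd8a, Cd3e, Cd3d, Cd3g, Lck and Zap70), and of 16 markers of other cell types none did, although Cd4 and Klrb1c had peaks elsewhere.

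Among the 60 peaks, 31 lay at a promoter of the gene itself, defined as a midpoint within 1000 bp of the start of one of its transcripts. A further 27 lay outside promoters, 14 of them in introns, 12 between genes and 1 in an exon. The other two lay at the promoter of a neighbour, at Ptpre (named for Mki67) and Aktip (named for Rbl2). The D-type cyclins and their partners had 11 peaks (Ccnd3 5, Ccnd2 3, Cdk6 3), the S-phase cyclins and kinase 6 (Cdk2 2, and 1 each at Ccne1, Ccne2, Ccna2 and Cdc25a) and the mitosis genes 13 (Mki67 5, Bub1b 2, and 1 each at Top2a, Ccnb1, Ccnb2, Aurka, Plk1 and Cdc20). The inhibitors had 6 (Cdkn1b 3, and 1 each at Cdkn1a, Cdkn2c and Cdkn2d), the E2F and pocket proteins 7 (Rbl2 3, and 1 each at E2f1, E2f2, E2f3 and E2f4), the replication genes 9 (Mcm3 2, Mcm6 2, and 1 each at Mcm2, Mcm4, Mcm5, Pcna and Cdc6), and Myb and Myc 4 each. Myb, Myc and E2f2 had peaks outside promoters only.

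Ccnd1, Cdk4, Cdk1, Bub1, Aurkb, Cdc25b, Rb1, Rbl1 and Mcm7 had no peak under this rule. For 4 of these 9 genes a peak named for a close neighbour lay at the start all the same, 15 bp away for Cdk1 (peak named for Ank3), 53 bp for Mcm7 (Ap4m1), 80 bp for Cdk4 (Marchf9) and 114 bp for Cdc25b (Spef1). The nearest peak was 13877 bp from Aurkb, 24765 bp from Ccnd1, 56669 bp from Rbl1, 59035 bp from Rb1 and 90315 bp from Bub1. The Mki67 peaks 56893 and 69339 bp downstream lay in introns of Ptpre, and the Cdk2 peak 11337 bp upstream lay in an exon of Pmel.

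The letters of an E2F site (TTTCCCGC or TTTGGCGC, either strand) occurred within the central 300 bp of 6 of the 31 promoter peaks (19.4%), against 2.87% of all 7670 promoter peaks in the table. The promoters were those of Mcm3 and Mcm6 with 2 sites each, and of Mcm5, E2f1, Cdc25a and Top2a with 1 each. None of the 27 peaks outside promoters held one, against 0.546% of all 5857 such peaks. A CCAAT box (CCAAT) occurred in 58.1% of the promoter members and 32.2% of all promoter peaks. The string TTTGAA, the CHR element of mitosis genes, occurred in 16.1% against 8.49%. A match is a description of the letters in this window only. The windows of Mcm5, Mcm3 and Mcm6 are shown because these promoters of helicase subunits had the highest mean counts among those with a site, and the capitals mark the E2F letters. They are GRCm39, plus strand, at chr8:75835816-75836115, chr1:20890290-20890589 and chr1:128287265-128287564.
Mcm5 promoter: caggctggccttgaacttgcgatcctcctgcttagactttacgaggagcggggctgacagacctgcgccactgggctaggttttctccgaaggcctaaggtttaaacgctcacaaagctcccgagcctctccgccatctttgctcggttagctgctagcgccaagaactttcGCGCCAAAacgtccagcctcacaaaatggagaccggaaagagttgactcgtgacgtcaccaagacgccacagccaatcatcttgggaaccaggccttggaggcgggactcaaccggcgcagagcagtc
Mcm3 promoter: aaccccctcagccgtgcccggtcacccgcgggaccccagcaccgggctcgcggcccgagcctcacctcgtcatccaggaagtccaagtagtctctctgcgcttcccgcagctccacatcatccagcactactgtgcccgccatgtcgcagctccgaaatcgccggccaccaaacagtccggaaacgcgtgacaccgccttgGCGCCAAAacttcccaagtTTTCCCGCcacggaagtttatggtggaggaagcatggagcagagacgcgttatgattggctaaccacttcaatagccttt
Mcm6 promoter: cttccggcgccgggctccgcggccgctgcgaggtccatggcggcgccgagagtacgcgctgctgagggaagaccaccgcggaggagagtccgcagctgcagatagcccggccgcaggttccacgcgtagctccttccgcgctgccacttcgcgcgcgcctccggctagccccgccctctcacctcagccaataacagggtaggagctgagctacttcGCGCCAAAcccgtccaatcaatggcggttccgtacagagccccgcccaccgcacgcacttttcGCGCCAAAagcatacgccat

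Another 4 windows outside promoters are shown because the test over all 7 groups gave them the smallest p-values among the member peaks away from start sites. They lay in an intron of Rbl2 (chr8:91800444-91800743), in an intron of Ptpre downstream of Mki67 (chr7:135261256-135261555), between genes downstream of Myc (chr15:62049676-62049975) and in an intron of Cdk6 (chr5:3433640-3433939), again GRCm39, plus strand. Capitals mark, on either strand, the letters searched for RUNX (TGTGGT), TCF (CTTTGA), NFAT (TGGAAA) and ETS (CCGGAA) sites, all bound by factors of T cells. Each window held a RUNX string, and over the 27 member peaks outside promoters 37.0% did, against 40.6% of all such peaks. TCF letters occurred in 33.3% against 25.5%, and NFAT letters in 33.3% against 25.4%.
Rbl2 intron: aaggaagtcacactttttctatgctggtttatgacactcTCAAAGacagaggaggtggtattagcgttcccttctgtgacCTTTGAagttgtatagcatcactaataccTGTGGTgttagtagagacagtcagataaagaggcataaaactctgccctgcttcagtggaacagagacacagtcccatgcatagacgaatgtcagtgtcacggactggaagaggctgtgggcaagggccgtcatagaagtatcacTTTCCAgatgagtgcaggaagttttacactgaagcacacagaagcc
Ptpre intron near Mki67: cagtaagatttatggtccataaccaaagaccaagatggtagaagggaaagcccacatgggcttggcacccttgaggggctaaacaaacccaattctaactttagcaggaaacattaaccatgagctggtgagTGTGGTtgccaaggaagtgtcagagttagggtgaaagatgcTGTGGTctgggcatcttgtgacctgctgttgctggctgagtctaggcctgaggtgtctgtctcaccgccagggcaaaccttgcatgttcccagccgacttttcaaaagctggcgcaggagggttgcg
Downstream of Myc: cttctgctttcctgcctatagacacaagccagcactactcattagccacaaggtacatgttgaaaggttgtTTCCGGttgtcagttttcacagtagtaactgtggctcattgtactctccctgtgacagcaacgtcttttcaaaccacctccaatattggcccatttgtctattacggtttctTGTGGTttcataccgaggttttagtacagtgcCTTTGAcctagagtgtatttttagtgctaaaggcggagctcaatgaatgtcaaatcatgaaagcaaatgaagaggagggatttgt
Cdk6 intron: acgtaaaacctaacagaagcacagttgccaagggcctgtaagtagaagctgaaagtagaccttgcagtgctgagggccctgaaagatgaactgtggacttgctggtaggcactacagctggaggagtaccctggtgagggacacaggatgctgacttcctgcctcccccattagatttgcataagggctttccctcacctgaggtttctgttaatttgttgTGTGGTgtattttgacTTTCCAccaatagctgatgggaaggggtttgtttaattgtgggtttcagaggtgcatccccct

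The promoters of the cycle genes were open in most groups and varied little, and the peaks outside promoters varied more. Over the 7 group means, the range of the normalized count was a median of 0.40 on the log2 scale for the 31 promoter members (0.15 to 0.85), beside 0.41 for all promoter peaks. For the 27 members outside promoters it was 1.25 (0.19 to 4.25), beside 1.00 for all peaks outside promoters. Promoter members had a median of 581 normalized counts per kb and members outside promoters 386. The promoter peaks were longer (median 1310 bp against 800 bp) and richer in CpG (observed over expected 0.79 against 0.30).

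The deposited lists of peaks that recurred within a group, which pool the libraries of a group and carry no replicate error, differed in how many members they held. The S+P C5 list held 57 of the 60 member peaks (95%, beside 82.9% of all peaks) and the S+P C4 list 21 (35%, beside 27.0%). Between 37 and 44 member peaks were in each of the other lists, and the Sensitized list had the most of these. Of the 31 promoter members 16 (51.6%) were in all 7 lists, against 34.9% of all promoter peaks, whereas 1 of the 27 members outside promoters was (3.70%, the Ccnd3 intronic peak 3063 bp downstream), against 9.68% of all such peaks. A set of 10 members were listed in S+P C5 alone: 9 outside promoters, of Ccnd2 (4248 bp), Cdk6 (14541 and 42305 bp), Bub1b (22572 bp), Mcm6 (2110 bp), Myb (2166, 17731 and 43870 bp) and Myc (438580 bp), and the Cdk2 promoter. The Plk1 promoter was listed in S+P C7 alone. Members in a single list were thus 18.3% of all members, near the 16.7% of all peaks, and 33.3% of those outside promoters, beside 24.3% of all such peaks. The S+P C5 list contained the deepest library, and the S+P C4 list the shallowest. Their part in the lists was not tested.

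**Figure D1:**
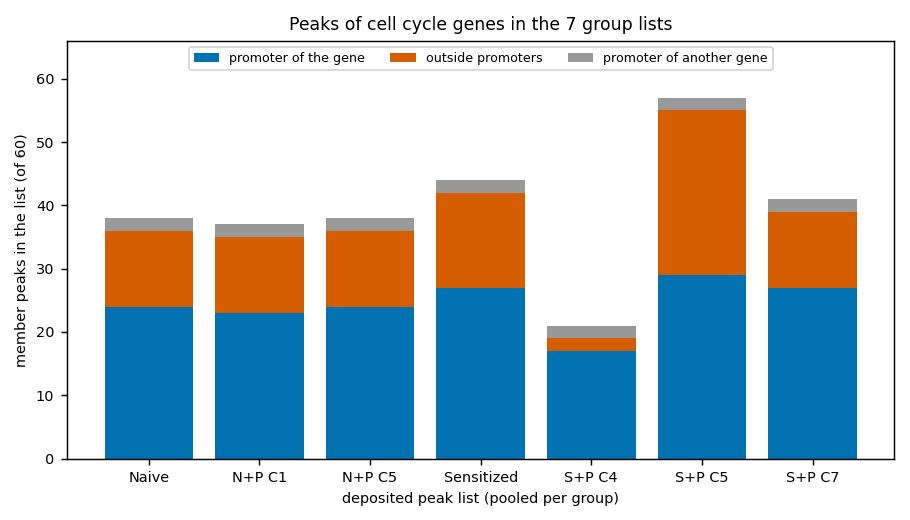
Number of the 60 member peaks that overlapped each of the 7 deposited group lists by at least 1 bp, stacked by position (promoter of the gene, outside promoters, promoter of another gene). The S+P C5 bar reaches 57 with 26 peaks outside promoters, and the S+P C4 bar reaches 21 with 2.

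Each peak was tested with DESeq2 in 1 fit over all 25 libraries (Wald tests between groups, p-values adjusted by Benjamini-Hochberg over all peaks). Called peaks had an adjusted p under 0.1 and a log2 fold change over 0.9 in size, the thresholds of the study. A likelihood ratio test over the 7 groups found a difference at 50 of the 60 member peaks, where the background was 78.4% of all peaks. It included 23 of the 31 promoter members (70.8% of all promoter peaks) and 25 of the 27 members outside promoters (88.4%). The 10 members that did not pass were the promoters of Ccnd3, Ccna2, Ccne1, Aurka, Ccnb1, Top2a, Mcm2 and Pcna and the Ccnd3 intronic peaks 3063 and 6617 bp downstream. No promoter member was called in any of the 10 comparisons between groups, although without N+P C5 1 the Cdc6 promoter was called in S+P C5 against N+P C5 and in the interaction described further on.

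**Figure D2:**
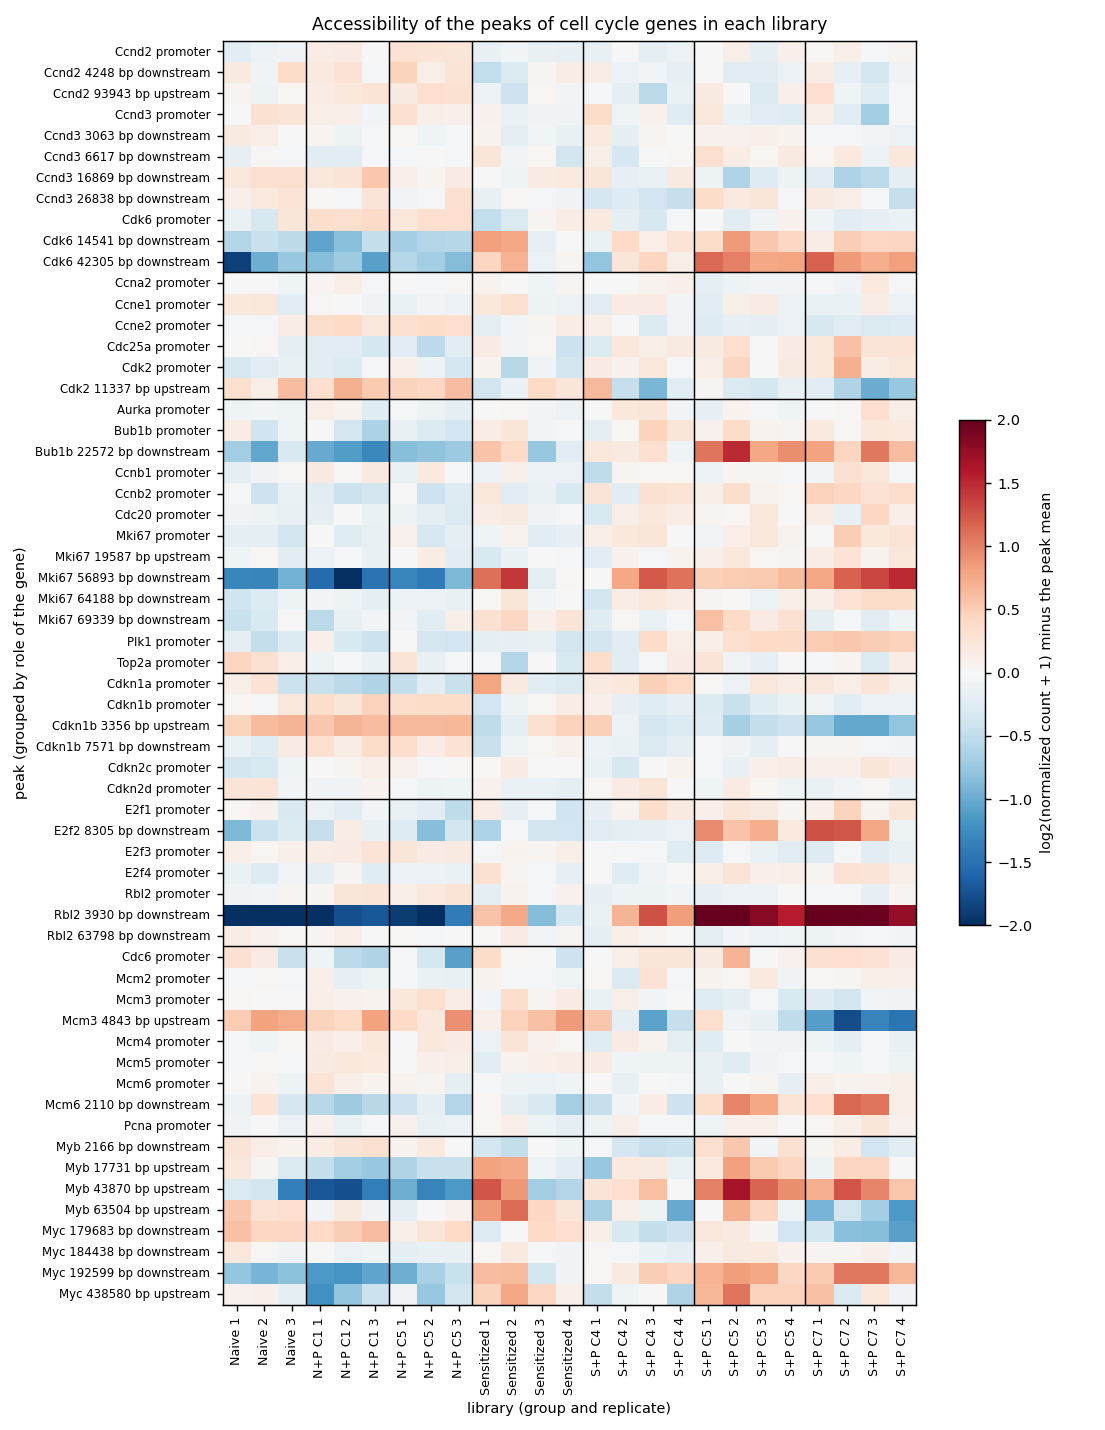
Heat map of the 60 member peaks (rows, grouped by role) in the 25 libraries (columns, by group), coloured by log2(normalized count + 1) minus the mean of the peak, from −2 to 2. The rows for Rbl2 (3930 bp downstream), Mki67 (56893 bp downstream), Cdk6 (42305 bp downstream) and Myb (43870 bp upstream) run from blue in Naive and N+P libraries to red in both PD1+ subsets of S+P mice, and most promoter rows stay pale. The Mki67 peak had group means of 531 in Sensitized and 565 in S+P C4, above 459 in S+P C5 and below 738 in S+P C7.

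Among the D-type cyclins and partners, both intronic peaks of Cdk6, a kinase that starts the cycle with cyclin D, were more accessible after sensitization. The first lay 42305 bp downstream of the start (chr5:3433521-3434058). It held 30.3, 57.0 and 66.2 normalized counts in the Naive libraries, 61.9, 68.4 and 52.8 in N+P C1 and 75.5, 69.9 and 61.3 in N+P C5. Sensitized libraries held 152, 184, 104 and 117, S+P C4 libraries 64.7, 134, 153 and 122, S+P C5 libraries 249, 228, 193 and 196 and S+P C7 libraries 256, 204, 187 and 201. The 4 Sensitized, 4 S+P C5 and 4 S+P C7 libraries all lay above all Naive and N+P libraries, and S+P C4 overlapped with N+P through its first library, the shallowest. Sensitized exceeded Naive (log2 fold change 1.40 ± 0.26 SE, adjusted p = 1.88e-06), and S+P C5 exceeded N+P C5 (log2 fold change 1.65 ± 0.26 SE, adjusted p = 2.71e-09). When each library was scaled by a curve over the mean count (loess offsets), the S+P C5 excess over N+P C5 became −0.085 and was not called, and Sensitized over Naive was not called either.

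The second Cdk6 peak (chr5:3405610-3406441) followed with smaller differences. It held 134, 149 and 141 normalized counts in the Naive libraries, 96.2, 113 and 145 in N+P C1 and 126, 134 and 136 in N+P C5. Sensitized libraries held 357, 348, 179 and 202, S+P C4 libraries 184, 265, 221 and 245, S+P C5 libraries 260.4, 364, 293 and 271 and S+P C7 libraries 224, 286, 270.1 and 272. No Sensitized, S+P C5 or S+P C7 library reached down to a Naive or N+P library, and Sensitized 1 and 2 lay above Sensitized 3 and 4. The difference was called for Sensitized over Naive (log2 fold change 0.94 ± 0.22 SE, adjusted p = 0.000327) and S+P C5 over N+P C5 (log2 fold change 1.17 ± 0.22 SE, adjusted p = 2.04e-06), and neither was called with loess offsets. The call over Naive was also lost without Sensitized 1 and without Sensitized 2.

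The Cdk6 promoter did not share this pattern. It held 1160.0, 1018 and 1512 normalized counts in the Naive libraries, 1623, 1600.3 and 1659.8 in N+P C1 and 1491, 1609 and 1617 in N+P C5. Sensitized libraries held 907, 1046, 1332 and 1418, S+P C4 libraries 1467, 1124, 1019.9 and 1253, S+P C5 libraries 1288, 1093, 1223 and 1362 and S+P C7 libraries 1199, 1093, 1138 and 1161. N+P C1 lay above Naive without overlap, at a log2 fold change of 0.40 (adjusted p = 0.0878), and S+P C5 lay below N+P C5 at −0.34 (adjusted p = 0.0321).

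Ccnd2 encodes cyclin D2, the partner that T cells induce on activation. Its promoter held 791, 847 and 875 normalized counts in the Naive libraries, 1022, 1033 and 923 in N+P C1 and 1119.9, 1110.2 and 1087 in N+P C5. Sensitized libraries held 830.1, 883, 830.2 and 818, S+P C4 libraries 830.2, 918, 802 and 848, S+P C5 libraries 919, 999, 813 and 984 and S+P C7 libraries 935, 999, 895 and 950.3. Both N+P subsets lay above all Naive libraries. The rise passed the adjusted p threshold in N+P C5 (log2 fold change 0.40 ± 0.078 SE, adjusted p = 0.0013) and in N+P C1 (log2 fold change 0.25 ± 0.079 SE, adjusted p = 0.0541), below the fold threshold in both. S+P C5 was lower than N+P C5 (log2 fold change −0.26 at adjusted p = 0.00123). Of the 5 peaks at Ccnd3, which encodes cyclin D3, the intronic peak 16869 bp downstream was lower in S+P C7 than in Sensitized (−0.44 at adjusted p = 0.00258) and in S+P C5 than in N+P C5 (−0.35 at adjusted p = 0.0247), and the one 26838 bp downstream was higher in S+P C5 than in S+P C4 (0.57 at adjusted p = 0.000376). None of these reached the fold threshold.

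In the S-phase group, the promoter of Ccne2, which encodes a cyclin E, had the smallest p-value in S+P C5 against N+P C5. It held 1025, 1024 and 1152 normalized counts in the Naive libraries, 1329.6, 1370.4 and 1223 in N+P C1 and 1305, 1342 and 1319 in N+P C5. Sensitized libraries held 910.2, 1000.4, 1087 and 1160.1, S+P C4 libraries 1126, 1036, 867 and 1007, S+P C5 libraries 869, 934, 907 and 967 and S+P C7 libraries 839, 897, 850.0 and 877. All S+P C5 and S+P C7 libraries lay below all N+P C5 libraries. S+P C5 was lower than N+P C5 (log2 fold change −0.53 ± 0.085 SE, adjusted p = 9e-09), while N+P C5 and N+P C1 were higher than Naive (0.31 at adjusted p = 0.0487 and 0.29 at adjusted p = 0.0483). The promoter of Cdc25a, a phosphatase that activates Cdk2, went the other way, at 0.48 (adjusted p = 0.00177) in S+P C5 over N+P C5. The Cdk2 promoter was higher in S+P C7 than in Sensitized (0.54 at adjusted p = 0.00162), and the peak in the Pmel exon upstream of Cdk2 was lower (−0.68 at adjusted p = 0.0116). The Ccna2 and Ccne1 promoters, of cyclins A2 and E1, passed the adjusted p threshold in none of the comparisons.

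Among the mitosis genes, the peak in the Ptpre intron named for Mki67, the gene of the proliferation marker Ki-67, rose with sensitization (chr7:135261099-135261712). It held 127, 126 and 163 normalized counts in the Naive libraries, 108, 69.5 and 113 in N+P C1 and 128, 118 and 168 in N+P C5. Sensitized libraries held 678, 847, 279.8 and 319, S+P C4 libraries 313, 540.0, 739.8 and 668, S+P C5 libraries 439, 448, 456 and 491 and S+P C7 libraries 538, 720.1, 802 and 891. Every library of sensitized mice, pregnant or not, lay above every Naive and N+P library, and Sensitized 3 and 4 lay lowest among the Sensitized libraries. The difference was a log2 fold change of 1.93 ± 0.31 SE, adjusted p = 3.16e-08 for Sensitized over Naive and a log2 fold change of 1.73 ± 0.32 SE, adjusted p = 4.74e-07 for S+P C5 over N+P C5. No comparison among the sensitized groups called it. Ptpre encodes a receptor tyrosine phosphatase, and nothing here ties the peak to either gene.

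The Mki67 promoter ranged less between libraries. It held 519, 522 and 457 normalized counts in the Naive libraries, 589.6, 502 and 535 in N+P C1 and 628, 476 and 525 in N+P C5. Sensitized libraries held 557, 625, 506 and 529, S+P C4 libraries 647, 684, 704 and 592, S+P C5 libraries 570.0, 652, 691 and 625 and S+P C7 libraries 595, 832, 684 and 718. Every S+P library lay above all Naive libraries, whereas S+P C7 overlapped with Sensitized. Of the comparisons between pairs of groups it passed the adjusted p threshold only for S+P C7 over Sensitized, at 0.35 (adjusted p = 0.00546), and DESeq2 gave no adjusted p for N+P C1 or N+P C5 against Naive.

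Bub1b encodes BubR1, a kinase of the spindle checkpoint, and its intronic peak 22572 bp downstream (chr2:118451059-118451453) had its highest mean in S+P C5. It held 60.6, 47.2 and 79.5 normalized counts in the Naive libraries, 48.7, 44.9 and 39.6 in N+P C1 and 54.3, 56.2 and 58.9 in N+P C5. Sensitized libraries held 147, 130.2, 57.9 and 83.5, S+P C4 libraries 116, 112, 124 and 92.5, S+P C5 libraries 208, 279, 169 and 188 and S+P C7 libraries 174, 133, 205 and 151. The 4 S+P C5 libraries lay above every library of the Sensitized, S+P C4, Naive and N+P groups, and Sensitized overlapped with Naive through Sensitized 3. S+P C5 exceeded N+P C5 (log2 fold change 1.90 ± 0.29 SE, adjusted p = 1.21e-09), Sensitized (log2 fold change 1.01 ± 0.25 SE, adjusted p = 0.000995) and S+P C4 (log2 fold change 0.93 ± 0.26 SE, adjusted p = 0.00619). With loess offsets the first of these became −0.22 and the others were not called. The excess over Sensitized was also lost without Sensitized 3, without Sensitized 3 and 4, and without S+P C5 2, and the excess over S+P C4 without S+P C5 2 and without S+P C4 4.

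The Bub1b promoter changed less. It held 429.8, 295 and 367 normalized counts in the Naive libraries, 384, 308 and 251 in N+P C1 and 348, 319 and 297 in N+P C5. Sensitized libraries held 430.3, 461, 373 and 380.2, S+P C4 libraries 344, 399.8, 530.5 and 460.2, S+P C5 libraries 412, 502, 406 and 405 and S+P C7 libraries 446, 395, 449 and 446. The S+P C5 libraries exceeded those of N+P C5, at 0.42 (adjusted p = 0.0157).

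The promoter of Plk1, the polo-like kinase of mitosis, was the promoter member with the smallest adjusted p in the comparisons of PD1+ cells with Sensitized cells. It held 215, 174 and 201 normalized counts in the Naive libraries, 261, 195 and 179 in N+P C1 and 244, 192 and 186 in N+P C5. Sensitized libraries held 213, 216, 219.6 and 187, S+P C4 libraries 187, 209, 311 and 264, S+P C5 libraries 262, 303, 321 and 316 and S+P C7 libraries 345, 354, 339.7 and 332. All S+P C5 and S+P C7 libraries lay above all Sensitized libraries, at log2 fold changes of 0.52 (adjusted p = 0.00292) and 0.71 (adjusted p = 6.93e-06). The Ccnb2 promoter, of cyclin B2, was higher in S+P C7 than in Sensitized (0.48 at adjusted p = 0.0035), and that of Cdc20, an activator of the anaphase-promoting complex, was higher in S+P C5 than in N+P C5 (0.27 at adjusted p = 0.0362). The Top2a promoter, of topoisomerase II alpha, was lower in Sensitized than in Naive (−0.49 at adjusted p = 0.0169). The promoters of Aurka and Ccnb1 passed the adjusted p threshold in no comparison.

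Among the inhibitors, the peak 3356 bp upstream of Cdkn1b, whose product p27 holds resting T cells out of the cycle, was the one called peak that closed in S+P C5 against N+P C5 (chr6:134893304-134894711). It held 579, 659 and 678 normalized counts in the Naive libraries, 618, 677 and 652 in N+P C1 and 662, 663 and 669.7 in N+P C5. Sensitized libraries held 297, 371, 527 and 584, S+P C4 libraries 589, 388, 337 and 352, S+P C5 libraries 352, 266, 303 and 318 and S+P C7 libraries 251, 208, 207 and 245. All S+P C5 and S+P C7 libraries lay below all Naive and N+P libraries, and S+P C7 lay below S+P C5 and Sensitized without overlap. Sensitized 3 and 4 lay near the Naive level, and Sensitized 1 and 2 were lower. The difference was a log2 fold change of −1.09 ± 0.19 SE, adjusted p = 1.69e-07 for S+P C5 against N+P C5. It was a log2 fold change of −0.96 ± 0.18 SE, adjusted p = 2.11e-06 for S+P C7 against Sensitized. The second call was lost without Sensitized 3, without Sensitized 4 and without both.

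The Cdkn1b promoter, the longest of the member peaks at 4331 bp, was lower in S+P C5 as well, by less. It held 1970.0, 1887 and 2230.2 normalized counts in the Naive libraries, 2441, 2262 and 2645 in N+P C1 and 2450.0, 2483 and 2482 in N+P C5. Sensitized libraries held 1462, 1794, 1972 and 2127, S+P C4 libraries 2052, 1706, 1618 and 1703, S+P C5 libraries 1593, 1407, 1625 and 1746 and S+P C7 libraries 1818, 1643, 1766 and 1759. The log2 fold change of S+P C5 over N+P C5 was −0.63 (adjusted p = 1.91e-08), with no overlap between the groups. The peak 7571 bp downstream was higher in N+P C1 and N+P C5 than in Naive (0.34 at adjusted p = 0.066 and 0.32 at adjusted p = 0.0949) and lower in S+P C5 than in N+P C5 (−0.33 at adjusted p = 0.00563). The Cdkn2c promoter, of p18, was higher than in Naive in N+P C1, N+P C5 and Sensitized (0.30 at adjusted p = 0.0611, 0.28 at adjusted p = 0.0884 and 0.29 at adjusted p = 0.0122). The Cdkn2d promoter, of p19, was lower in Sensitized than in Naive (−0.24 at adjusted p = 0.0482). The Cdkn1a peak, at an internal start of the p21 gene, was higher in S+P C5 than in N+P C5 (0.46 at adjusted p = 0.0556).

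The widest range of all 60 peaks was in an intron of Rbl2, the pocket protein p130 of resting cells (chr8:91800156-91801032, also within an Aktip transcript). It held 30.3, 28.5 and 37.9 normalized counts in the Naive libraries, 25.4, 47.1 and 49.0 in N+P C1 and 42.3, 38.4 and 60.1 in N+P C5. Sensitized libraries held 241, 272, 87.7 and 125, S+P C4 libraries 146, 258, 392 and 288, S+P C5 libraries 651, 782, 573 and 482 and S+P C7 libraries 658, 689, 633 and 544. Every library of sensitized mice exceeded every Naive and N+P library, and every S+P C5 and S+P C7 library exceeded every Sensitized and S+P C4 library. The step from Naive to Sensitized was a log2 fold change of 2.48 ± 0.35 SE, adjusted p = 9.87e-11. The step from Sensitized to S+P C5 was a log2 fold change of 1.78 ± 0.30 SE, adjusted p = 1.75e-07, and the step to S+P C7 was a log2 fold change of 1.80 ± 0.30 SE, adjusted p = 4.04e-08. S+P C5 exceeded N+P C5 by a log2 fold change of 3.73 ± 0.34 SE, adjusted p = 1.8e-24, and S+P C4 by a log2 fold change of 1.18 ± 0.30 SE, adjusted p = 0.00191. S+P C7 and S+P C5 overlapped and were not called apart (log2 fold change 0.021, with a 95% interval of −0.56 to 0.60). With loess offsets S+P C5 against S+P C4 was no longer called.

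The Rbl2 promoter did not open with it. It held 1059, 1069 and 1157 normalized counts in the Naive libraries, 1165, 1321 and 1328 in N+P C1 and 1226, 1275 and 1344 in N+P C5. Sensitized libraries held 979, 1171, 1087 and 1186, S+P C4 libraries 994, 1037, 1038 and 1078, S+P C5 libraries 996, 1024, 1024 and 1118 and S+P C7 libraries 1092, 1088, 1001 and 1164. S+P C5 lay below N+P C5 at −0.30 (adjusted p = 0.000341), and N+P C5 above Naive at 0.22 (adjusted p = 0.0949). The Aktip promoter named for Rbl2, 63798 bp downstream, had a range of 0.19 over the group means on the log2 scale.

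E2f2 encodes an activating E2F, and its only peak lay in an intron (chr4:135907676-135908104). It held 64.7, 90.5 and 101 normalized counts in the Naive libraries, 88.5, 135 and 109 in N+P C1 and 102, 67.2 and 93.8 in N+P C5. Sensitized libraries held 79.0, 118, 94.0 and 93.3, S+P C4 libraries 105, 108, 109 and 113, S+P C5 libraries 236, 181, 202 and 139.6 and S+P C7 libraries 296, 289, 209 and 113. The 4 S+P C5 libraries lay above all Sensitized and S+P C4 libraries, while S+P C7 4 overlapped with Sensitized and was far below the other three S+P C7 libraries. S+P C5 exceeded Sensitized (log2 fold change 0.99 ± 0.26 SE, adjusted p = 0.00188) and N+P C5 (log2 fold change 1.11 ± 0.29 SE, adjusted p = 0.000427), and S+P C7 exceeded Sensitized (log2 fold change 1.23 ± 0.26 SE, adjusted p = 1.89e-05). With loess offsets none of these 3 was called and the excess over N+P C5 became −0.40. The call against Sensitized was also lost without S+P C5 1. Among the other E2F promoters, S+P C5 was higher than N+P C5 at E2f1 (0.42 at adjusted p = 0.0063) and E2f4 (0.27 at adjusted p = 0.0562), and lower at E2f3 (−0.36 at adjusted p = 1.21e-06).

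**Figure D3:**
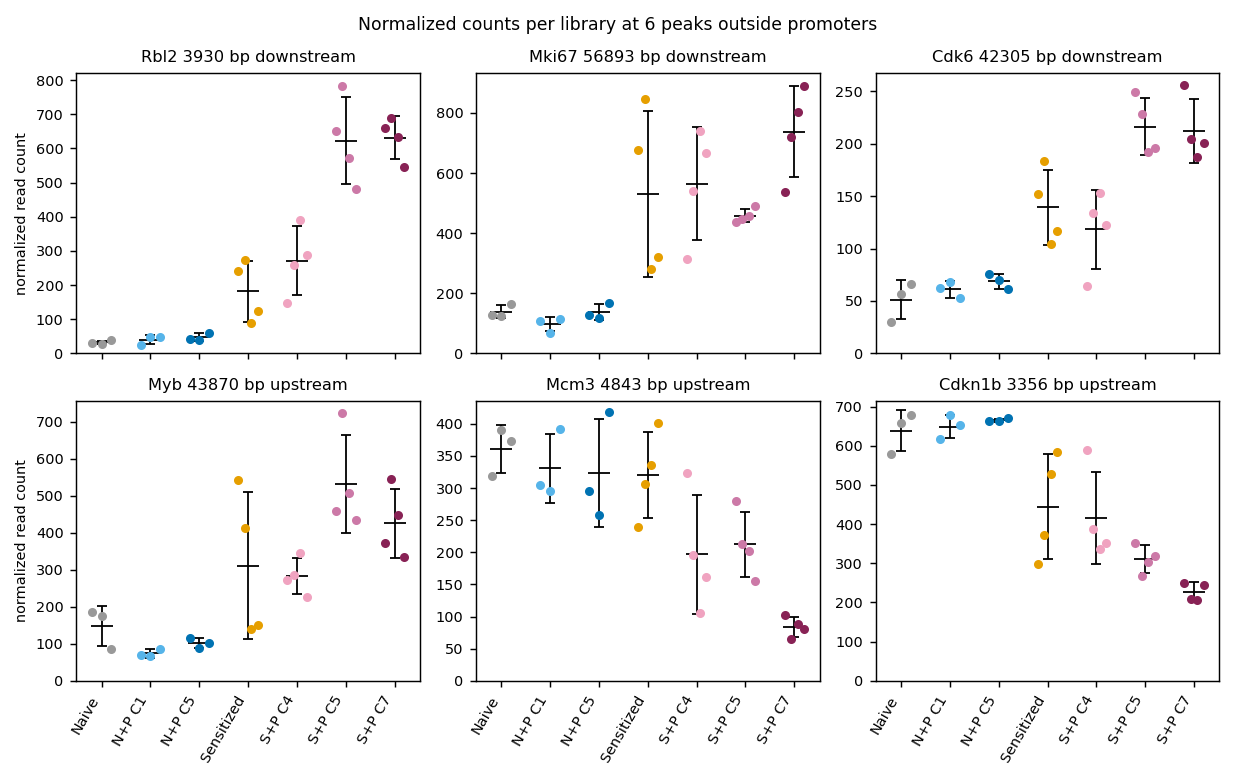
Normalized read counts at 6 member peaks outside promoters, 1 point per library, with the mean (long bar) and SD (whiskers) of each of the 7 groups. At Rbl2, S+P C5 and S+P C7 lie between 482 and 782 and all Naive and N+P libraries at or below 60.1, while Mcm3 and Cdkn1b are lowest in S+P C7.

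Among the replication genes, the peak 4843 bp upstream of Mcm3, a subunit of the MCM helicase, closed in S+P C7 (chr1:20895090-20895667). It held 318, 390.4 and 373 normalized counts in the Naive libraries, 305, 295 and 392 in N+P C1 and 295, 258 and 418 in N+P C5. Sensitized libraries held 240.0, 306, 336 and 401, S+P C4 libraries 323, 196, 106 and 162, S+P C5 libraries 279, 213, 202 and 156 and S+P C7 libraries 103, 64.7, 87.8 and 80.1. All 4 S+P C7 libraries lay below every library of the other groups. The drop was a log2 fold change of −1.93 ± 0.26 SE, adjusted p = 1.1e-11 against Sensitized and a log2 fold change of −1.34 ± 0.26 SE, adjusted p = 6.96e-05 against S+P C5. S+P C4 and Sensitized overlapped, at −0.74 (adjusted p = 0.0728). Without S+P C4 1 that difference passed both thresholds.

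At the Mcm3 promoter with its pair of E2F strings the differences were smaller. It held 858, 837 and 846 normalized counts in the Naive libraries, 921, 893 and 885 in N+P C1 and 968, 1053 and 935 in N+P C5. Sensitized libraries held 805, 1076, 873 and 944, S+P C4 libraries 769, 911, 806 and 844, S+P C5 libraries 714, 745, 829 and 676 and S+P C7 libraries 702, 654, 810.2 and 802. S+P C5 lay below N+P C5 (−0.41 at adjusted p = 0.000146), and S+P C7 was lower than Sensitized with overlap (−0.31 at adjusted p = 0.00257).

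Mcm6, another helicase subunit, had an intronic peak 2110 bp downstream (chr1:128285103-128285709) that was higher in PD1+ cells of S+P mice than in Sensitized and N+P C5. It held 139, 181 and 119 normalized counts in the Naive libraries, 102, 90.8 and 102 in N+P C1 and 113, 132 and 99.8 in N+P C5. Sensitized libraries held 155, 131, 122 and 94.4, S+P C4 libraries 109, 144, 167 and 112, S+P C5 libraries 192, 297, 258 and 181 and S+P C7 libraries 189.7, 335, 316 and 165. S+P C5 and S+P C7 lay above Sensitized and N+P C5 without overlap. Both overlapped with Naive, whose second library held 181, and S+P C7 overlapped with S+P C4. S+P C7 was called over Sensitized (log2 fold change 0.99 ± 0.24 SE, adjusted p = 0.000241) and S+P C5 over N+P C5 (log2 fold change 1.01 ± 0.26 SE, adjusted p = 0.000562), whereas S+P C5 over Sensitized stayed under the fold threshold (log2 fold change 0.88 ± 0.24 SE, adjusted p = 0.00292). The S+P C7 call was lost with loess offsets and without Sensitized 4, S+P C7 2 or S+P C7 3, and the S+P C5 call with loess offsets and without S+P C5 2.

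The Mcm6 promoter passed the adjusted p threshold between groups for S+P C7 against Sensitized only. It held 699.8, 739 and 659.9 normalized counts in the Naive libraries, 851, 773 and 746 in N+P C1 and 745, 733 and 616 in N+P C5. Sensitized libraries held 698, 656, 653 and 663, S+P C4 libraries 701, 639, 714 and 698, S+P C5 libraries 639, 713, 738 and 629 and S+P C7 libraries 765, 741, 752 and 771. S+P C7 lay above Sensitized (0.18 at adjusted p = 0.031). In S+P C5 against N+P C5, the promoters of Mcm4 and Mcm5 were lower (−0.23 at adjusted p = 0.0282 and −0.20 at adjusted p = 0.0262), and that of Cdc6, which loads the helicase, was higher (0.68 at adjusted p = 0.00843). The promoters of Mcm2 and Pcna, the sliding clamp, passed the adjusted p threshold in no comparison.

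Myb had 4 peaks and no promoter peak. The one 43870 bp upstream (chr10:21080268-21081237) had the widest range among them. It held 185, 175 and 87.1 normalized counts in the Naive libraries, 68.6, 66.2 and 86.7 in N+P C1 and 115, 89.1 and 102 in N+P C5. Sensitized libraries held 542, 413, 139 and 151, S+P C4 libraries 272, 287, 345 and 228, S+P C5 libraries 459, 724, 508 and 434 and S+P C7 libraries 373, 545, 449 and 334. All S+P C5 libraries lay above all Naive, N+P and S+P C4 libraries. Sensitized 1 lay within the range of S+P C5, Sensitized 2 just below it, and Sensitized 3 and 4 lay within the range of Naive. S+P C5 exceeded N+P C5 (log2 fold change 2.38 ± 0.37 SE, adjusted p = 1.55e-09), and Sensitized exceeded Naive (log2 fold change 1.07 ± 0.36 SE, adjusted p = 0.0229). The second call was lost without Naive 3, without Sensitized 1, without Sensitized 2 and with the compared groups fitted alone. S+P C5 exceeded S+P C4 (log2 fold change 0.91 ± 0.33 SE, adjusted p = 0.059), which edgeR and the fit with the replicate number as a block did not call and which was lost without S+P C4 1, 2 or 4 and without S+P C5 2 or 3.

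The Myb peak 63504 bp upstream was lower in S+P C4 and S+P C7 than in Sensitized (chr10:21100108-21100665). It held 293, 245 and 253 normalized counts in the Naive libraries, 192, 227 and 192 in N+P C1 and 177, 200.1 and 214 in N+P C5. Sensitized libraries held 362, 439, 267 and 236, S+P C4 libraries 126, 217, 187 and 98.9, S+P C5 libraries 203, 329, 269.8 and 189 and S+P C7 libraries 105, 155, 124 and 90.3. All S+P C7 libraries lay below all Sensitized and S+P C5 libraries, and S+P C4 lay below Sensitized. The drop against Sensitized was a log2 fold change of −1.47 ± 0.25 SE, adjusted p = 5.61e-08 in S+P C7 and a log2 fold change of −1.05 ± 0.25 SE, adjusted p = 0.00325 in S+P C4, and S+P C7 lay below S+P C5 at a log2 fold change of −1.07 ± 0.25 SE, adjusted p = 0.00111. The S+P C4 call was lost without Sensitized 2 and without S+P C4 4. The peak 17731 bp upstream was called for S+P C5 over N+P C5 (1.01 at adjusted p = 0.00032, lost without S+P C5 2 and with loess offsets), and the intronic peak 2166 bp downstream was higher in S+P C5 than in Sensitized (0.51 at adjusted p = 0.0027).

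Myc likewise had 4 peaks, all far from its start. The peak 192599 bp downstream (chr15:62049494-62050157) rose with sensitization. It held 145, 129 and 139 normalized counts in the Naive libraries, 111, 109 and 119 in N+P C1 and 126, 158 and 180.4 in N+P C5. Sensitized libraries held 379.6, 384, 192 and 235, S+P C4 libraries 255, 279, 348 and 332, S+P C5 libraries 403, 442, 422 and 331 and S+P C7 libraries 357, 514, 515 and 392. Every library of sensitized mice, pregnant or not, lay above all Naive and N+P libraries. Sensitized exceeded Naive (log2 fold change 1.12 ± 0.22 SE, adjusted p = 9.35e-06), and S+P C5 exceeded N+P C5 (log2 fold change 1.37 ± 0.22 SE, adjusted p = 9.23e-09).

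The Myc peak 438580 bp upstream (chr15:61418479-61418815) differed between the PD1+CD73+ and PD1- cells of S+P mice. It held 127, 128 and 103 normalized counts in the Naive libraries, 50.9, 68.4 and 88.5 in N+P C1 and 114, 69.9 and 92.6 in N+P C5. Sensitized libraries held 162, 204, 160.0 and 127, S+P C4 libraries 85.1, 112, 119 and 78.0, S+P C5 libraries 189, 251, 165 and 164 and S+P C7 libraries 179, 97.0, 138 and 114. The S+P C5 libraries did not overlap with S+P C4 or N+P C5 and lay above both. S+P C5 exceeded S+P C4 (log2 fold change 0.96 ± 0.24 SE, adjusted p = 0.00145), a call lost without S+P C5 2, without S+P C4 4 and with loess offsets, and N+P C5 (log2 fold change 1.05 ± 0.25 SE, adjusted p = 0.00018), which loess offsets turned to −0.55 and which was not called without N+P C5 2. Another Myc peak, 179683 bp downstream, was lower in S+P C7 than in Sensitized (log2 fold change −0.899, adjusted p = 3.75e-06), just under the fold threshold. It was called there with loess offsets, the replicate block, edgeR, the compared groups alone and without any 1 of Naive 1, N+P C1 1 or 2, Sensitized 1 or 2, or S+P C7 1.

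Counted by comparison, the largest number of called member peaks was between PD1+CD73+ cells of S+P and N+P mice, which asks how far a previous sensitization changes the cells that a pregnancy leaves. The 12 called members were 11 higher in S+P C5 (background 10.3% of all peaks) and 1 lower (background 6.97%), so 12 of 60 stood beside a background of 17.2%. All 12 lay outside promoters, 12 of 27 against 35.4% of all such peaks, while 3.36% of all promoter peaks were called and none of the 31 promoter members was. Without a fold threshold 37 members passed, against 63.8% of all peaks. The members' share was near that of all peaks. With loess offsets the split was 4 higher and 1 lower, and the 5 that were still called were Rbl2 (3930 bp), Mki67 (56893 bp), Myb (43870 bp), Myc (192599 bp) and Cdkn1b (3356 bp).

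**Figure D4:**
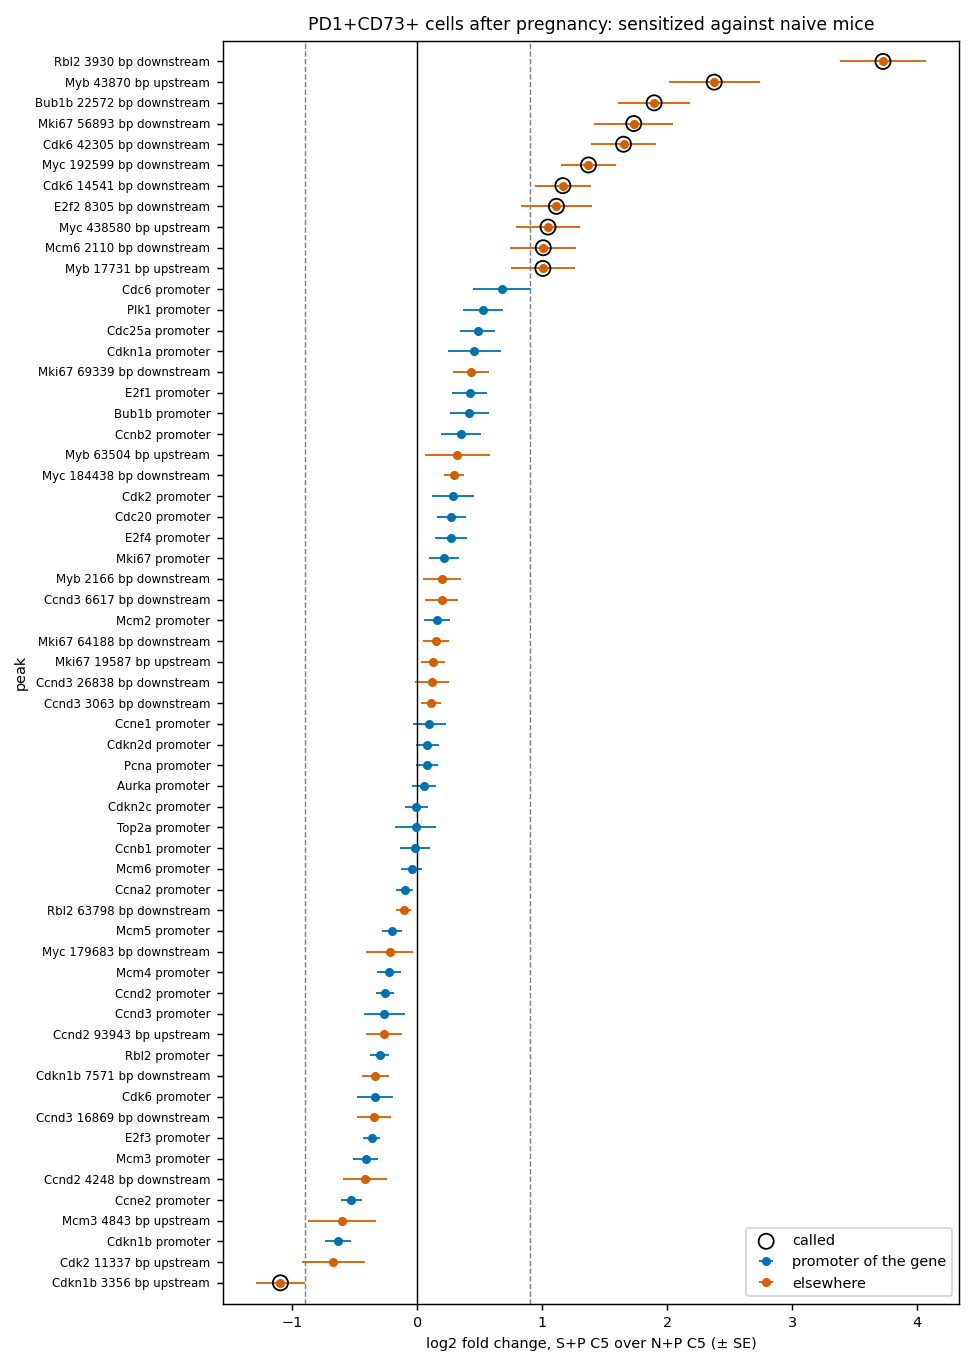
DESeq2 log2 fold change of S+P C5 over N+P C5 with its SE for the 60 member peaks, in order of size. Circles mark the 12 called peaks and dashed lines the fold threshold of 0.9. All called peaks lie outside promoters, and the Rbl2 intronic peak is highest at 3.73. With loess offsets the values for Cdk6 (42305 bp), Bub1b, E2f2 and Myc (438580 bp) turn negative.

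These called peaks were often ones with few counts. By mean normalized count, the 10% of all peaks with the fewest counts (61.8 to 209.6) had a median log2 fold change of 0.63 in this comparison with 44.5% called higher, and the 10% with the most counts had −0.19 with 0.222% called higher. The former held 6 members, the peaks of Bub1b (22572 bp), Ccnd2 (4248 bp), Cdk6 (42305 bp), E2f2, Mcm6 (2110 bp) and Myc (438580 bp), and all but the Ccnd2 peak were called higher. A peak of few counts was in the table because at least 1 group list held it, and the S+P C5 list held the most peaks. Of the 11 members called higher, 7 were in the S+P C5 list alone and 10 in no list other than those of S+P C5 and S+P C7, so most of them entered the table through groups in which they were high. The part of this in the result was not tested.

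The effect of sensitization alone was read from Sensitized against Naive. Here 6 members were called, all higher in Sensitized: the peaks of Rbl2 (3930 bp), Mki67 (56893 bp), Cdk6 (14541 and 42305 bp), Myc (192599 bp) and Myb (43870 bp). The background was 8.62% of all peaks (7.22% higher), 18.4% of those outside promoters and 1.15% of promoter peaks. At any fold, 14 members passed, against 20.5%, and 8 without Naive 1 or without Sensitized 2, 9 without Naive 2 and 22 without Sensitized 3 and 4. Of the 6, 5 were in the S+P C5 and S+P C7 lists only, and none was in the Naive list. Without Sensitized 3 and 4 the count was 8, with Bub1b (22572 bp, higher) and Cdkn1b (3356 bp, lower) in addition.

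Pregnancy without sensitization called no member. In N+P C1 against Naive and in N+P C5 against Naive the background was 0.00739% of all peaks each. At any fold, 6 members passed in N+P C1 (background 4.29%) and 5 in N+P C5 (2.23%), and all of them were higher than in Naive, as were most such peaks of the table (3.57% of all peaks higher and 0.717% lower in N+P C1, 1.87% and 0.355% in N+P C5). These counts were unstable. They fell to 0 without Naive 1 in both comparisons, without Naive 2 or N+P C1 2 in the former and without N+P C5 3 in the latter, and rose to 13 and 12 without Naive 3. Loess offsets gave 0 and 2, and total counts as size factors 2 and 3. The promoters of Ccnd2, Ccne2, Cdkn2c and Rbl2 and the Cdkn1b peak 7571 bp downstream passed in both comparisons, which share the Naive libraries, and the Cdk6 promoter in N+P C1. The filter on mean counts left 35 and 40 of the 60 members without an adjusted p. edgeR's quasi-likelihood test passed no member at any fold in either, with 14 and 9 members at an unadjusted p under 0.05, where DESeq2 had 15 and 10. N+P C5 against N+P C1 called no member and passed none at any fold, against 0% of all peaks, with 1 member at an unadjusted p under 0.05 by DESeq2 and 0 by edgeR.

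For the promoters, the direction of these small differences went with the length of the peak. Over the 31 promoter members, Spearman's rho between length and log2 fold change was 0.75 for N+P C1 against Naive, 0.68 for N+P C5 against Naive and −0.73 for S+P C5 against N+P C5. Over all 7670 promoter peaks the same values were 0.44, 0.44 and −0.44. The 9 promoters longer than 1500 bp had a median log2 fold change of 0.25 in N+P C1 over Naive and −0.30 in S+P C5 over N+P C5, and the 22 shorter ones −0.0077 and 0.19. The points share the libraries, and the part of peak length in the promoter differences was not tested.

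**Figure D5:**
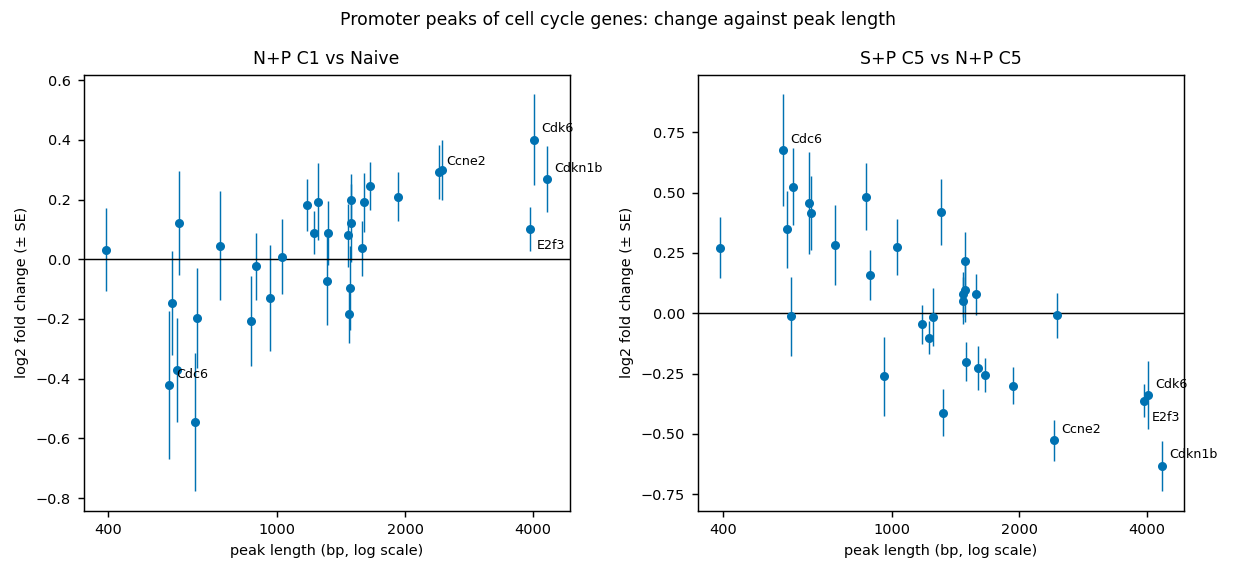
DESeq2 log2 fold change with its SE (y axis) against peak length in bp (x axis, log scale) for the 31 promoter members, for N+P C1 against Naive (left) and S+P C5 against N+P C5 (right). Long promoters such as Cdk6 and Cdkn1b lie above 0 on the left and below 0 on the right.

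Pregnancy after sensitization was read from the S+P subsets against Sensitized. S+P C4 had 1 called member, the Myb peak 63504 bp upstream (background 0.858%, 0.296% lower), and 3 at any fold (6.54%, 3.42% lower), the others being Mcm3 (4843 bp) and Myc (438580 bp), all lower. The count at any fold was 15 without Sensitized 1 and 10 without Naive 3 and S+P C4 1. It was 6 without S+P C4 1 or with the replicate block. It was 5 without Naive 3, without S+P C7 4, or without Sensitized 3 and 4. It was 1 without Sensitized 2 or S+P C4 4, with edgeR and with the compared groups alone. S+P C5 had 3 called members, Rbl2 (3930 bp), Bub1b (22572 bp) and E2f2, all higher (background 6.74%, with 3.08% higher, 14.7% outside promoters and 0.652% at promoters), and 21 at any fold (32.9%). The latter count was 10 without Sensitized 4, 11 without Sensitized 3 or S+P C5 2, and 10 without Sensitized 3 and 4. S+P C7 had 6, with Rbl2 (3930 bp), E2f2 and Mcm6 (2110 bp) higher and Mcm3 (4843 bp), Myb (63504 bp) and Cdkn1b (3356 bp) lower (background 11.9%, with 3.84% higher and 8.03% lower, 24.6% outside promoters and 2.11% at promoters), and 27 at any fold (52.9%). With loess offsets S+P C7 had 1 higher and 5 lower. Without Sensitized 3 and 4, S+P C5 had 2 called members, and S+P C7 had 4, with 16 at any fold. The members called higher in either subset, 3 each, were in the S+P C5 and S+P C7 lists only.

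Within S+P mice, S+P C5 against S+P C4 called 4 members, Myc (438580 bp), Rbl2 (3930 bp), Bub1b (22572 bp) and Myb (43870 bp), all higher in the PD1+CD73+ cells (background 5.12%, 3.12% higher), and 12 passed at any fold (13.3%, 7.24% higher), all higher and none at a promoter of its gene. All 4 called peaks were in the table through the S+P C5 list alone (3 of them) or the S+P C5 and S+P C7 lists. None was in the S+P C4 list. They thus entered the table through groups in which they were high, and the part of this in their common direction was not tested. The count fell to 1 without S+P C5 2 and without S+P C4 4, and to 0 with loess offsets, which left 6 at any fold. S+P C7 against S+P C5 called 2, Mcm3 (4843 bp) and Myb (63504 bp), both lower in the PD1+CD73- cells (background 2.38%, 2.11% lower), and 6 at any fold (8.93%), or 10 with the replicate number as a block.

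The change from cells of mice without pregnancy to PD1+CD73+ cells after pregnancy was compared between sensitized and naive mice. This interaction, the log2 fold change of S+P C5 over Sensitized minus that of N+P C5 over Naive, cannot separate pregnancy from the sort. It called 5 members (background 5.97%, 3.04% larger), all larger in sensitized mice: Mcm6 (2110 bp) at a log2 fold change of 1.23 ± 0.37 SE, adjusted p = 0.0148, Bub1b (22572 bp) at a log2 fold change of 1.17 ± 0.41 SE, adjusted p = 0.031, Rbl2 (3930 bp) at a log2 fold change of 1.25 ± 0.49 SE, adjusted p = 0.0531, Myb (43870 bp) at a log2 fold change of 1.31 ± 0.51 SE, adjusted p = 0.0533 and E2f2 at a log2 fold change of 0.96 ± 0.41 SE, adjusted p = 0.0718. At any fold, 20 members passed against 31.2% of all peaks, a count that fell to 7 without Naive 2, 9 without Naive 1, 10 without N+P C5 2, 11 without Sensitized 4, without S+P C5 2 or with loess offsets, 12 without N+P C5 3 and 3 without Sensitized 3 and 4. All 5 called peaks were in the table through the S+P C5 list alone (3 of them) or the S+P C5 and S+P C7 lists. They thus entered it through groups in which they were high, and the part of this in their common direction was not tested. Without Sensitized 3 and 4 none of the 5 was called. Leaving out 1 library, the E2f2 call was lost without any 1 of Naive 2 or 3, N+P C5 2 or 3, Sensitized 1, 3 or 4, and S+P C5 1, 2 or 3. The Myb call was lost without Naive 1 or 2, N+P C5 2 or 3, Sensitized 3 or 4, or S+P C5 2, and with the compared groups fitted alone, and the Rbl2 call without Naive 2, N+P C5 2, Sensitized 4 or S+P C5 2.

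A second list of 56 cycle genes gave 56 peaks at 46 genes. In S+P C5 against N+P C5, 3 of these were called higher and 6 lower (16.1% in all, near the 17.2% of all peaks), and in Sensitized against Naive 3 and 1 (7.14%, near the 8.62% of all peaks). Against Sensitized, S+P C5 had 1 higher and 4 lower (8.93%, beside 6.74% of all peaks), and S+P C7 had 1 and 7 (14.3%, beside 11.9%). The interaction was called larger at 2 and smaller at 3 (8.93%, beside 5.97%). Gadd45a, a stress gene that arrests the cycle, closed at its promoter in S+P C5 against N+P C5, at a log2 fold change of −1.16 (adjusted p = 2.31e-11), and at an intronic peak named for it, at −1.58 (adjusted p = 5.36e-08). An intronic peak of Lin54, a subunit of the complex that Rbl2 joins at cycle genes, was called higher with 3.35 (adjusted p = 8.07e-21) there and with 1.47 (adjusted p = 0.00015) in Sensitized over Naive. The promoters of the inhibitors Cdkn2a and Cdkn2b were called higher in Sensitized than in Naive (1.40 at adjusted p = 8.07e-09 and 1.23 at adjusted p = 3.73e-17). The promoter of E2f6, a repressing E2F, was called lower in S+P C5 than in N+P C5 (−0.91 at adjusted p = 2.3e-05), as were peaks between genes named for Cenpf, Mad2l1 and Cdc7 (−2.21 at adjusted p = 1.82e-06, −2.31 at adjusted p = 5.46e-05 and −1.40 at adjusted p = 0.000212). The peak named for Cdt1, a licensing factor, was called higher (1.27 at adjusted p = 1.82e-06). No member of this list was called in the comparisons of N+P cells with Naive.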

How the data were processed

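The authors trimmed paired reads with cutadapt 3.4, aligned them to GRCm39 with Bowtie2 2.2.9, removed duplicates with Picard 2.21.8, called peaks per library with Genrich 0.6.1 in ATAC mode, kept those recurring in a group with ChIP-R and counted reads in the merged peaks. The deposited table holds raw counts of 13527 peaks in 25 libraries, all from the same sequencing run. The 7 deposited lists, pooled per group, have no column names, and a score and a q-value were read from the usual layout of ChIP-R output. Only the overlap with the lists and that q-value were used here. No batch of animals or sorting is given in the labels.

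Peaks were named from GENCODE vM39 (GRCm39, 1-based coordinates). Counts were fitted with DESeq2 1.42.0 (R 4.3.3), a single term for group, size factors from the median of ratios, the filter on mean counts on and Benjamini-Hochberg adjustment over all peaks. edgeR 4.0.16 (quasi-likelihood) was an alternative. Tables and plots used Python 3.11.15, pandas 2.3.3, numpy 2.4.6 and matplotlib 3.10.9. The fits were tested on simulated data, where the likelihood ratio test over 7 groups passed more unchanged peaks than its threshold allows, so an edgeR test of the same question was added after seeing the data.

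Values per library were given for peaks called in a comparison (all if 6 or fewer, otherwise the 3 higher and 3 lower with the smallest adjusted p), for the 6 peaks outside promoters with the smallest p over 7 groups, and for the promoters of their genes. The Ccnd2, Ccne2 and Plk1 promoters were added after their values were seen, as were the peaks named from the second gene list. The members, gene lists, motifs and tests were chosen with earlier results of these data known. p-values measure the spread between these libraries. Column names share an animal prefix, so same-numbered subsets were taken to come from the same pregnant mouse. The labels give replicate numbers only and do not state this. The deviations of same-numbered libraries from their group means correlated at 0.400, 0.108 and 0.292 between N+P C1 and C5, at 0.572, 0.103, 0.313 and 0.510 between S+P C4 and C5, at 0.612, 0.0639, 0.385 and 0.666 between S+P C4 and C7, and at 0.771, 0.575, 0.522 and 0.630 between S+P C5 and C7. Pairs with different numbers lay between −0.685 (S+P C4 3 with S+P C5 1) and 0.440 (S+P C4 3 with S+P C5 2). S+P C4 2 correlated more with S+P C5 1 (0.158) and S+P C7 1 (0.183) than with its same-numbered libraries. Alternatives were other size factors, loess offsets, filters, thresholds, a replicate block, edgeR, the compared groups alone and leaving out libraries.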

Additional observations from a re-analysis of the deposited data

Results flagged for a closer look

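The interaction (DESeq2), S+P C5 over Sensitized minus N+P C5 over Naive on the log2 scale, joins pregnancy with the sort for PD1+CD73+ cells. It called 5 of the 60 members (8.33%), beside 5.97% of all peaks. All 5 were larger in sensitized mice (background 3.04%): Myb 43870 bp upstream (1.31), Rbl2 3930 bp downstream (1.25), Mcm6 2110 bp downstream (1.23), Bub1b 22572 bp downstream (1.17) and E2f2 8305 bp downstream (0.96). All 5 entered the table of peaks through the list of S+P C5 alone (3 of them) or those of S+P C5 and S+P C7. These were groups in which they were high, and the part of this in their common direction was not tested. None of the 5 was called without Sensitized 3 and 4, and the Myb peak alone was called with loess offsets. The part of these libraries in the difference was not tested further.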

How the results depend on the processing

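Total counts as size factors, the filter of 10 counts in 3 libraries and the mean-count filter turned off left every count of called members within 1.5 times. Loess offsets gave 1 called member in S+P C5 against Sensitized, 5 against N+P C5, 0 against S+P C4 and 1 in the interaction, and they turned the log2 fold change at Cdk6 (42305 bp) to −0.085 in S+P C5 against N+P C5, −0.094 in S+P C5 against Sensitized and −0.16 in S+P C7 against Sensitized, at Bub1b (22572 bp) to −0.22 in S+P C5 against N+P C5, −0.23 in S+P C7 against Sensitized and −0.65 in Sensitized against Naive, and in S+P C5 against N+P C5 at E2f2 to −0.40 and at Myc (438580 bp) to −0.55. The cause was not tested. With the adjusted p threshold at 0.05 the interaction called 2. With no fold threshold 14 members passed in Sensitized against Naive, 6 in N+P C1 and 5 in N+P C5 against Naive, against Sensitized 27 in S+P C7, 3 in S+P C4 plus 21 in S+P C5, 37 in S+P C5 against N+P C5, 12 against S+P C4, 6 in S+P C7 against S+P C5 and 20 in the interaction.

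Other ways of choosing members left fewer of them. Within 10 kb of the start, 41 members were left, of which 1 was called in Sensitized against Naive (2.44%, beside 3.04% of the 8577 peaks of the table within that distance), 0 in S+P C4 against Sensitized (beside 0.152%), 4 in S+P C5 against N+P C5 (9.76%, beside 6.55%), 1 against S+P C4 (2.44%, beside 1.36%), 1 in S+P C7 against S+P C5 (2.44%, beside 0.746%), 3 in the interaction (7.32%, beside 2.73%) and 31 over 7 groups (75.6%, beside 72.8%). Against Sensitized, 5 of the 41 were called in S+P C7 (12.2%, beside 4.41%) and 2 in S+P C5 (4.88%, beside 1.99%). With the nearest start taken over all gene types 33 peaks were members, of which 1 was called in Sensitized against Naive (3.03%, beside 8.62% of all peaks), 3 in S+P C7 (9.09%, beside 11.9%) and 0 in S+P C4 against Sensitized (beside 0.858%), 4 in S+P C5 against N+P C5 (12.1%, beside 17.2%), 2 against S+P C4 (6.06%, beside 5.12%), 0 in S+P C7 against S+P C5 (beside 2.38%) and 24 over 7 groups (72.7%, beside 78.4%). In S+P C5 against Sensitized 3 of the 33 were called (9.09%, beside 6.74%), and in the interaction 4 (12.1%, beside 5.97%). At a list q-value under 0.05 the Naive list held 5 members (8.33%, beside 4.37% of all peaks), N+P C1 3 (5%, beside 4.55%), N+P C5 4 (6.67%, beside 4.54%), S+P C7 9 (15%, beside 9.64%), S+P C5 10 (16.7%, beside 12.4%), S+P C4 8 (13.3%, beside 7.95%) and Sensitized 10 (16.7%, beside 10.1%).

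Leaving out 1 library at a time gave 4 (without Sensitized 1 or 2) to 7 (without Sensitized 3) in Sensitized against Naive, 0 to 1 in N+P C1 against Naive (Myb 43870 bp, lower, without Naive 3 or Sensitized 1), 0 in both other N+P comparisons, 0 to 2 in S+P C4, 2 to 5 in S+P C5 (5 without Sensitized 1 or 2) and 4 (without Sensitized 4) to 7 in S+P C7 against Sensitized, 10 to 13 in S+P C5 against N+P C5, 1 to 6 against S+P C4 (6 without S+P C4 3), 2 to 3 in S+P C7 against S+P C5, 2 to 6 in the interaction (2 without Naive 2, N+P C5 2, Sensitized 4 or S+P C5 2) and 48 to 53 over 7 groups. Without Sensitized 3 and 4, and with the compared groups alone, N+P C1 against Naive called 1, and without Naive 3 and S+P C4 1 it called 1 and S+P C4 against Sensitized 2. Without Sensitized 3 and 4 the interaction called 0. The replicate block gave 7 in S+P C7 against Sensitized and 3 in S+P C5 against S+P C4, and changed no other count except that over 7 groups, to 52. edgeR gave 7 and 3 in the same comparisons and 49 over 7 groups. S+P C4 1 had the lowest total, and the part of depth in its values was not tested.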
